A study of Mus musculus with 56 samples.

Results

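Fkbp5, Tsc22d3, Zbtb16, Sgk1, Mt1, Mt2 and Nr3c1 are the 7 genes described here, out of 20018 genes that the array's RefSeq accessions could be matched to. They were chosen by name: 4 genes that glucocorticoids are known to induce, the metallothioneins Mt1 and Mt2, and Nr3c1, which encodes the glucocorticoid receptor. Each gene was read from the probe with the highest mean Cy5 signal in each tissue. Adult male MutaMouse animals, a transgenic strain that carries a bacterial reporter gene for scoring mutations, were about 14 weeks old and took chrysene, a polycyclic aromatic hydrocarbon, by gavage on 28 consecutive days. D0 mice received the olive oil vehicle alone, and D1, D2 and D3 mice received 17.5, 50 and 150 mg of chrysene per kg of body weight per day in olive oil. Lung, liver and forestomach were removed 72 hours after the last dose, so every value describes that time only. The 56 arrays came from 5, 5, 3 and 5 mice (D0 to D3) in lung, and from 5, 5, 4 and 5 mice in liver and in forestomach. Mouse numbers in the labels tie the tissues of an animal together.

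Corticosterone, the main glucocorticoid of the mouse, follows a daily rhythm and rises with stress. It binds the receptor encoded by Nr3c1, which then enters the nucleus and activates or represses target genes. Metallothioneins are small cysteine-rich proteins that bind zinc and copper, and their genes respond to metals through the transcription factor MTF1 and to glucocorticoids. Lung, liver and forestomach are the tissues in which the study compared the response to chrysene, and the questions asked here were whether these genes changed with dose, how their levels differed between tissues, and whether the tissues of 1 mouse moved together.

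All values are log2 ratios of the tissue RNA, labelled with Cy5, over a reference RNA pooled from mouse cell lines, labelled with Cy3, so a negative value means less signal in the tissue than in the reference. A level of 1 gene can be set against the same gene in another sample, but not against another gene's level. A gene was called changed at an adjusted p of at most 0.05 in limma with a change of at least 1.5-fold, adjusted over all probes tested. The share of probes well above background in Cy5 had a median of 53.7% in lung, 40.0% in liver and 33.5% in forestomach. Forestomach arrays of slide 1 were brighter (40.4% to 51.7% of probes) than those of slides 2 and 3 (18.9% to 34.9%). No probe of the 7 genes was saturated, and all were well above background on every array, except Zbtb16, which was so on 17 of 19 forestomach arrays.

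The tissues carried their defining markers. The 5 alveolar type 2 markers averaged 6.31 to 6.84 (log2 ratio) in lung, the 6 hepatocyte markers averaged 6.68 to 7.38 in liver, and the 7 keratinocyte markers averaged 4.61 to 6.73 in forestomach. Some arrays also carried markers of other tissue. The lungs of mice 17 and 19 (D3) had mean skeletal muscle marker levels of 5.43 and 5.67, against -1.32 to -0.38 in the other 16 lungs. In forestomach, the mean of 7 glandular stomach markers was 5.31 to 7.07 in 10 mice and 0.37 to 2.86 in 9 mice. All 4 D2 mice were among those 10, with 3 D0, 2 D1 and 1 D3 mice. Bulk RNA cannot separate fewer cells of a type from less RNA per cell.

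Fkbp5 encodes a co-chaperone that lowers the receptor's affinity for hormone and is itself induced by the receptor. In lung, the D0 levels of Fkbp5 were -2.16, -2.19, 0.54, -1.91 and -1.63 in mice 1 to 5. The D1 levels were -2.23, -2.11, -1.79, -1.78 and -1.47 in mice 6 to 10, the D2 levels -1.70, -1.63 and -0.49 in mice 12, 13 and 15, and the D3 levels -2.13, -0.67, -1.81, -1.33 and -1.70 in mice 16 to 20. Mouse 3 was the highest of all 18 lungs and mouse 15 the second highest, and every dose group overlapped D0. In liver, Fkbp5 was -0.98, -0.44, 0.79, -0.48 and -0.72 in mice 1 to 5, and -0.45, -0.67, -0.42 and 0.74 in the D2 mice 11, 12, 13 and 15. The other livers lay between -0.99 and 0.01, so mice 3 and 15 again stood at the top. The forestomach range was -0.80 to 0.62, with mouse 3 the highest.

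Tsc22d3 encodes the glucocorticoid-induced leucine zipper GILZ, which mediates part of the anti-inflammatory action of the hormone. Lung levels of Tsc22d3 were 1.86, 1.38, 3.54, 2.08 and 1.55 in the D0 mice 1 to 5, and 1.48, 2.06 and 2.62 in the D2 mice 12, 13 and 15. D1 lungs ran from 1.27 to 2.05 and D3 lungs from 1.54 to 1.79. Liver levels of Tsc22d3 were 1.29, 0.77, 2.17, 0.82 and 0.91 in the D0 mice, with all other livers between 0.45 and 1.72. Mouse 3 had the highest Tsc22d3 level in lung, liver and forestomach, and mouse 15 the next highest in lung.

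Zbtb16 encodes PLZF, a zinc finger transcription factor that is strongly induced by glucocorticoids in many cell types. In lung, Zbtb16 was 3.57, 2.28, 6.00, 3.43 and 3.95 in the D0 mice 1 to 5 and 2.73, 4.36 and 4.97 in the D2 mice. In liver it was 3.97, 1.90, 5.23, 2.63 and 4.42 in D0 and 2.66, 2.05, 3.29 and 4.13 in D2. In forestomach it was 0.57, 0.92, 2.86, 0.19 and 2.18 in D0 and 0.99, 1.01, 1.58 and 1.30 in D2. Mouse 3 was again the highest in each tissue, and no dose group stood apart from D0. The highest and lowest mice for Zbtb16 differed 13.8-fold in lung and 14.1-fold in liver, the widest ranges of the 7 genes there, and 6.36-fold in forestomach, where that of Mt1 was 7.33-fold. Without mouse 3 the ranges for Zbtb16 were 6.77-fold, 8.06-fold and 5.11-fold, and that of Mt2 in lung was then wider (8.40-fold).

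Sgk1 encodes a kinase, induced by serum and glucocorticoids, that promotes sodium uptake by epithelia. Sgk1 had narrower ranges between lungs (-0.05 to 0.68) and livers (-2.63 to -1.74) than between forestomachs (-0.44 to 1.07). Neither mouse 3 nor mouse 15 had the highest Sgk1 level in any tissue. Nr3c1, the receptor gene, spanned 0.51 to 1.17 in lung, -0.67 to -0.21 in liver and -1.11 to -0.50 in forestomach, which is a range of 1.37-fold to 1.58-fold within a tissue. Its lowest lungs were those of mice 17 and 19 (0.51 and 0.57). The dose effects on Nr3c1 in lung had no settled direction: over the 3 doses they were 0.08 to 0.21 (log2 fold change) by the probe used and -0.24 to -0.11 by another probe of the gene, and limma called none.

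**Figure D1:**
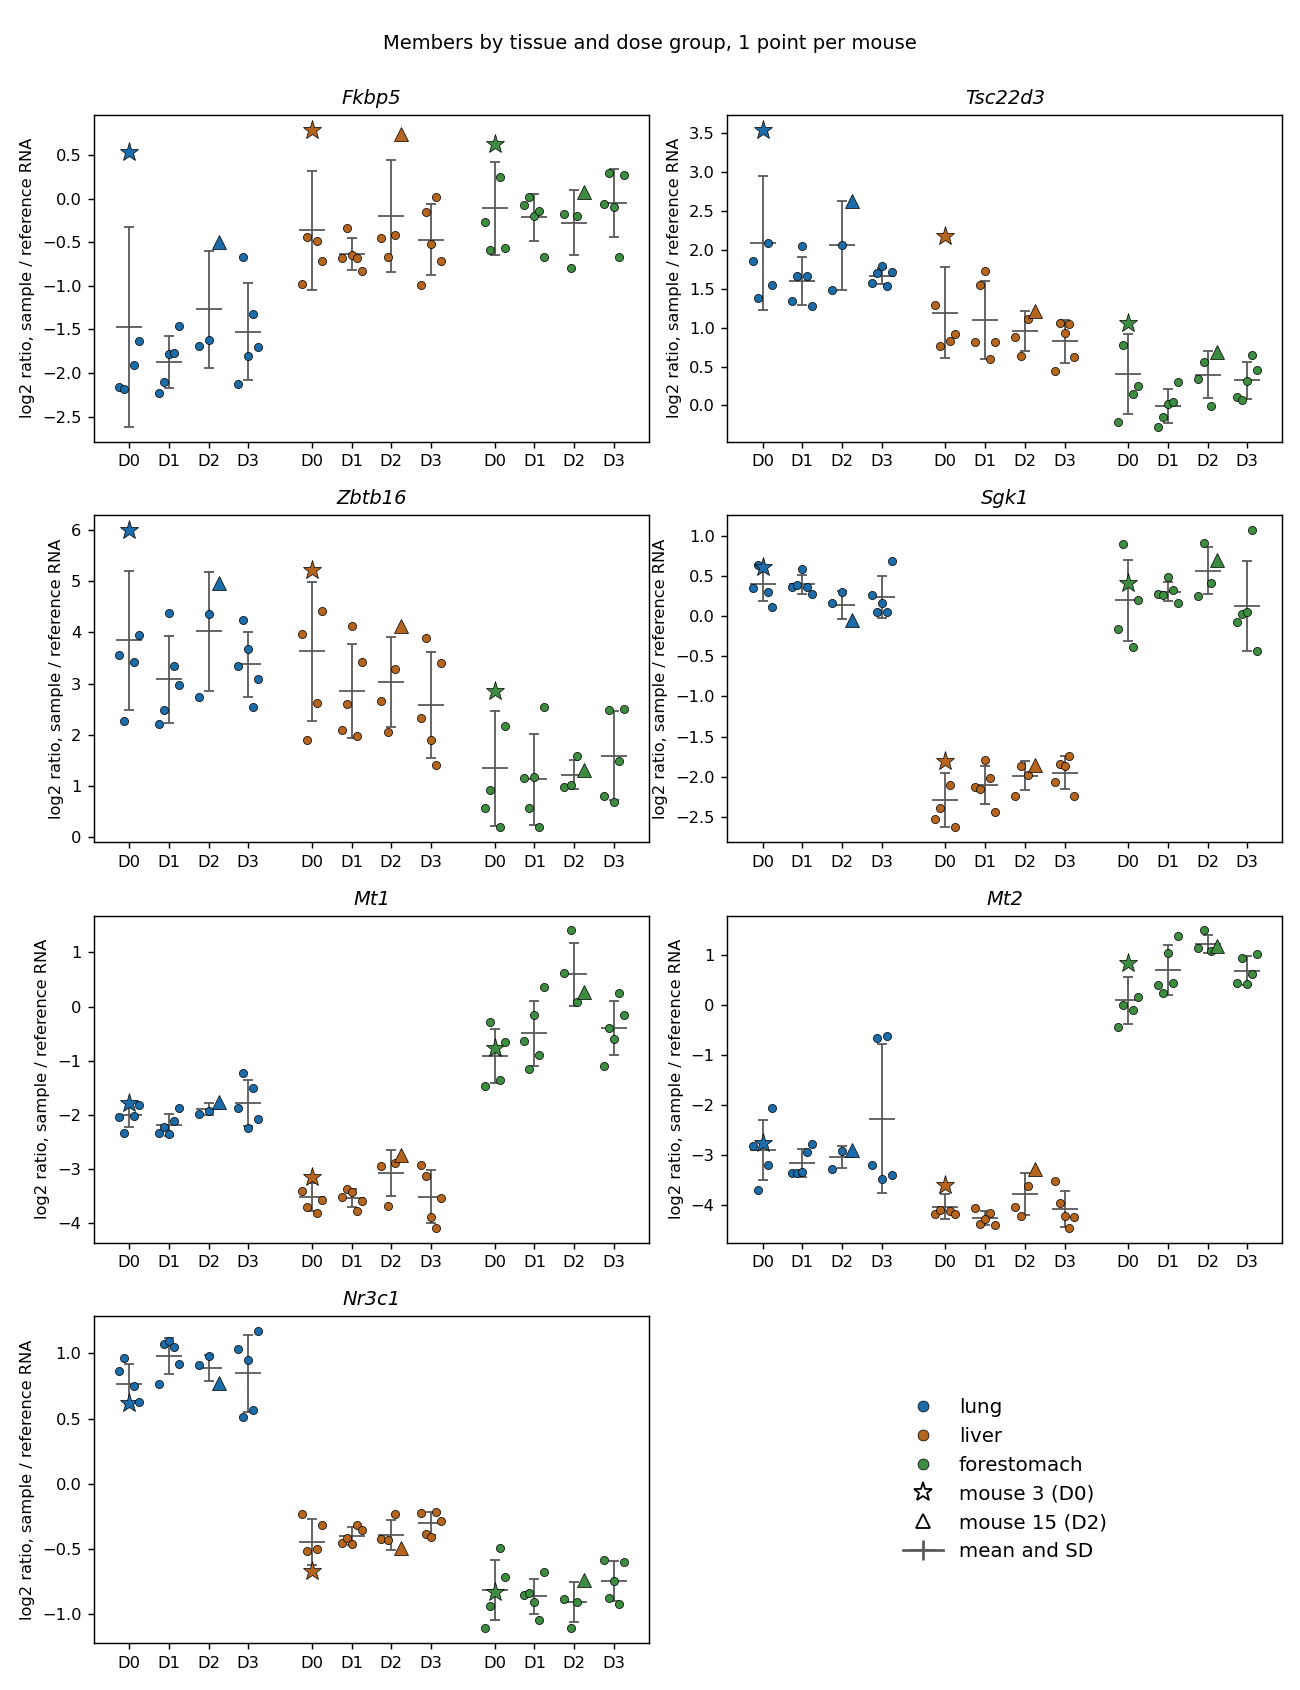
Log2 ratio of tissue over reference RNA (vertical axes) for each of the 7 genes, by tissue and dose group (horizontal axes), with 1 point per mouse and bars for the mean and SD. The star (mouse 3, D0) is the highest point of every tissue for Fkbp5, Tsc22d3 and Zbtb16, and dose groups overlap D0 except for Mt1 and Mt2 at D2 in forestomach.

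The promoters of the metallothioneins are shown because MTF1 acts through short metal response elements in them. The 250 bases before each annotated start were taken from RefSeq (GRCm38.p6), where Mt2 and Mt1 both lie on the plus strand with starts 6.47 kb apart. Capitals mark matches to the core of a metal response element, searched as TGCACNC or TGCGCNC on either strand. The Mt1 stretch is chr8:94178839-94179088 and the Mt2 stretch is chr8:94172368-94172617.
Mt1: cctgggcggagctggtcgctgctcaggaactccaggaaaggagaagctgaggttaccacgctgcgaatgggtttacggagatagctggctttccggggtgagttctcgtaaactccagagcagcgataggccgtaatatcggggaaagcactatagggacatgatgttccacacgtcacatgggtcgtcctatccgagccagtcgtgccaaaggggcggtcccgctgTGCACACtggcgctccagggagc
Mt2: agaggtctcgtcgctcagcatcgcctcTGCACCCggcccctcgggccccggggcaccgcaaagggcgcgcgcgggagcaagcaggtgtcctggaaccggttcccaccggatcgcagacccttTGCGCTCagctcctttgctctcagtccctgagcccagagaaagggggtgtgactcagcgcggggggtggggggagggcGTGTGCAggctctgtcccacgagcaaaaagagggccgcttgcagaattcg
Mt1 held 1 core in these bases, 23 to 17 bases before the start, and Mt2 held 3. The search window also took in the 50 bases after each start, which are not printed, and the 300 bases held 3 cores for Mt1 and 4 for Mt2. Of 32851 mouse promoter windows of this length, 25.7% held at least 1 core (12.6% TGCACNC, 15.4% TGCGCNC), 1.97% held as many as Mt1 and 0.517% as many as Mt2. The hexamer AGAACA, to which the receptor binds as part of a longer element, was in 19.0% of the windows. It was in none of those of Mt1, Mt2 or Fkbp5, in 3 of the 6 start windows of Sgk1 and in 1 of the 3 of Tsc22d3. A match is a description of the letters and no evidence of binding.

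Mt1 and Mt2 encode the widely expressed metallothioneins and had the largest dose-group differences of the 7 genes in forestomach. There, Mt1 was -1.47, -0.29, -0.77, -1.36 and -0.65 in the D0 mice 1 to 5, and 0.62, 1.41, 0.08 and 0.27 in the D2 mice 11, 12, 13 and 15. It was -0.64, -1.15, -0.16, -0.89 and 0.36 in D1 and -1.10, -0.40, -0.59, 0.25 and -0.16 in D3. Every D2 mouse was above every D0 mouse, while D1 and D3 overlapped D0. Mt2 was -0.45, -0.01, 0.84, -0.10 and 0.16 in D0, 0.39, 0.23, 1.05, 0.44 and 1.38 in D1, 1.14, 1.49, 1.08 and 1.18 in D2, and 0.44, 0.95, 0.41, 0.62 and 1.02 in D3. The D2 mice were again all above the D0 mice, and the order of the group means was D0, then D1 and D3 close together, then D2. Across all probes tested in forestomach, 0.956% had every D2 array above every D0 array, beside 0.353% for D1 and 0.865% for D3.

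The D2 effect in forestomach was a log2 fold change of 1.5 (SE 0.34) for Mt1 and 1.13 (SE 0.25) for Mt2, which is 2.83-fold and 2.19-fold. Neither passed the test (adjusted p 0.378 for each in limma, unadjusted p 0.000389 and 0.000272), and 0% of all forestomach probes were called at D2. The adjusted p for Mt1 ranged from 0.051, with slide as a block, to 1.00 over the alternatives. Within slide 1 the D2 mouse had an Mt1 level of 1.41 against -0.65 and -0.29 in the D0 mice, within slide 2 the levels were 0.62 against -1.47, and within slide 3 they were 0.08 and 0.27 against -1.36 and -0.77. Since every D2 mouse lay above every D0 mouse, no split by slide could have shown otherwise.

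The glandular stomach markers moved with the same contrast, since all 4 D2 forestomachs were in the group with high marker means (5.31 to 6.90). Among mice in that high group, Mt1 was -0.77 to -0.29 in the 3 D0 mice and 0.08 to 1.41 in the D2 mice, and Mt2 was -0.01 to 0.84 and 1.08 to 1.49. In the 2 D1 mice of that group, Mt1 was -0.16 and 0.36 and Mt2 was 1.05 and 1.38. In its 1 D3 mouse, Mt1 was 0.25 and Mt2 was 0.62. In the 2 D0 mice with low marker means, Mt1 was -1.47 and -1.36 and Mt2 was -0.45 and -0.10. The 3 low D1 mice had Mt1 of -1.15 to -0.64 and Mt2 of 0.23 to 0.44. The 4 low D3 mice had Mt1 of -1.10 to -0.16 and Mt2 of 0.41 to 1.02. The part of the glandular markers in the size of the D2 effect was not tested.

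**Figure D2:**
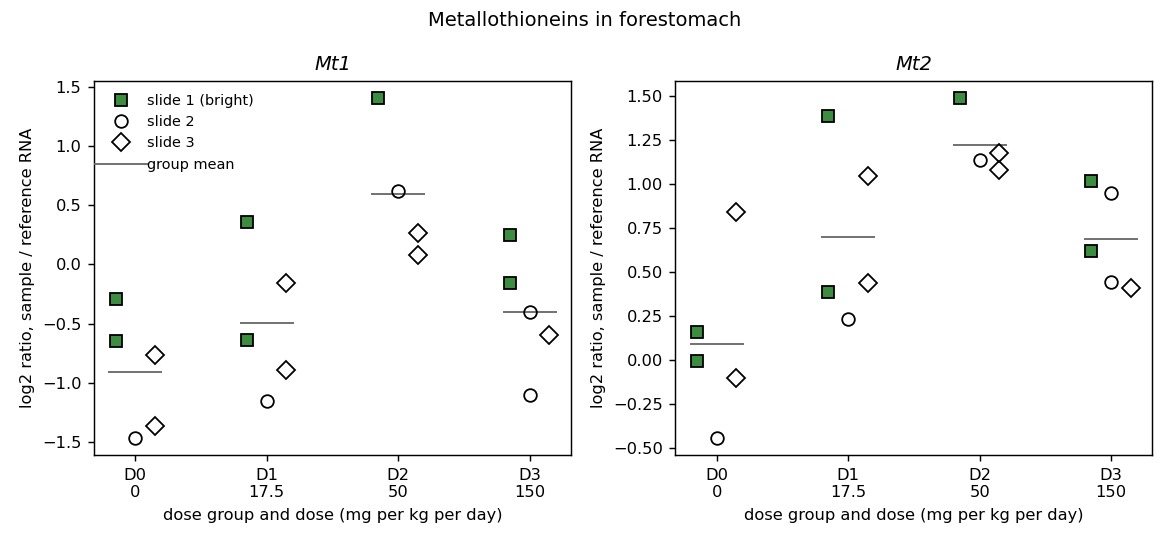
Mt1 (left) and Mt2 (right) log2 ratios in forestomach (vertical axes) by dose group (horizontal axes), with 1 symbol per mouse, shaped by slide, and a line at each group mean. The 4 D2 mice (0.08 to 1.41 for Mt1, 1.08 to 1.49 for Mt2) lie above all 5 D0 mice.

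In lung, Mt2 was -2.83, -3.70, -2.76, -3.20 and -2.06 in D0, -3.36, -3.36, -3.35, -2.93 and -2.79 in D1, and -3.29, -2.92 and -2.90 in D2. In D3 it was -3.20, -0.66, -3.48, -0.63 and -3.41 in mice 16 to 20. Mice 17 and 19 stood far above the other 16 lungs, and the remaining D3 mice were at the low end of D0. These were the lungs with skeletal muscle markers, and their keratinocyte marker means were 3.07 and 3.38 against -0.31 to -0.12 in the others. Mt4, a metallothionein of stratified epithelia, was at 6.25 and 6.82 in them and at most 0.14 elsewhere. Mt1 was also highest in these lungs, at -1.22 and -1.51, against -2.36 to -1.76 in the other 16. The D3 effect on lung Mt2 was 0.63 (SE 0.50, log2), and it was -0.46 without mice 17 and 19, so its direction rested on them. The fold range of Mt2 between lungs was 8.40 with those mice and 3.11 without them.

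**Figure D3:**
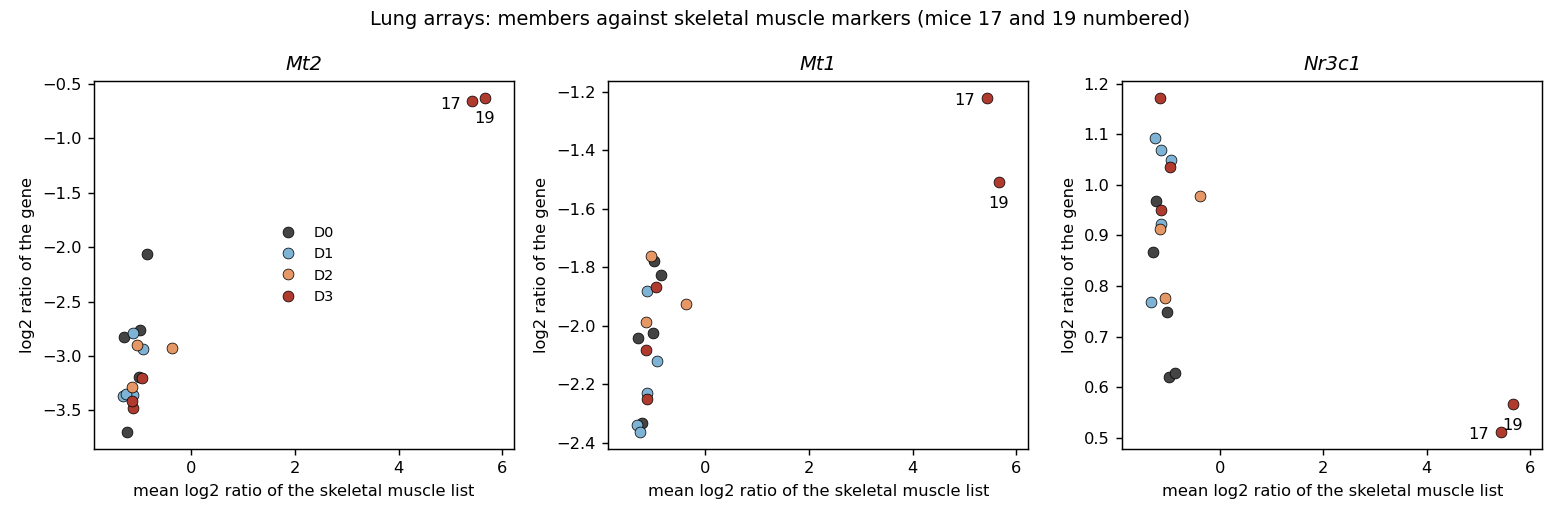
Lung log2 ratios of Mt2, Mt1 and Nr3c1 (vertical axes) against the mean log2 ratio of 7 skeletal muscle markers (horizontal axes), with 1 point per mouse coloured by dose group. Mice 17 and 19 lie apart at muscle means of 5.43 and 5.67, with the highest Mt2 and Mt1 and the lowest Nr3c1 levels.

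In liver, Mt1 was -3.41, -3.70, -3.14, -3.81 and -3.57 in D0 and -2.95, -3.70, -2.90 and -2.74 in D2, with D1 and D3 between -4.09 and -2.92. Liver Mt2 was -4.17, -4.11, -3.60, -4.12 and -4.19 in D0 and spanned -4.46 to -3.28 over all 19 livers. The groups overlapped for each gene. Mouse 15 had the highest Mt1 and Mt2 levels of all livers.

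Over the 7 genes, 3 tissues and 3 doses, limma called 0 of 63 dose effects, and 6 had an unadjusted p of at most 0.05. Besides forestomach Mt1 and Mt2 at D2, these were forestomach Mt2 at D1 (0.61, SE 0.24) and D3 (0.60, SE 0.24), liver Mt1 at D2 (0.46, SE 0.22) and liver Sgk1 at D3 (0.34, SE 0.15), all as log2 fold changes with limma adjusted p of 0.401 or more. All were increases. The background was low: limma called 0% of all probes at D1 and at D2 in each tissue, and at D3 0.127% in lung, 0% in liver and 0.00727% in forestomach. At an unadjusted p of at most 0.05 stood 16.2% of lung, 4.8% of liver and 9.24% of forestomach probes at D3, while the shares were 7.54% of forestomach and 3.79% of liver probes at D2 and 4.17% of forestomach probes at D1. The remaining shares were 6.12% of lung probes at D2, and 5.88% of lung and 3.61% of liver probes at D1.

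Of the 7 genes at D3, 3 had a positive log2 fold change in lung, 3 in liver and 5 in forestomach, with medians of -0.05, -0.04 and 0.07 beside all-probe medians of -0.03, -0.01 and 0.00. None of 21 linear trends over the dose steps was called in limma, and 2 had an unadjusted p of at most 0.05. These were forestomach Mt2, with a fitted rise of 0.67 (SE 0.28, log2) from D0 to D3, and liver Sgk1, with 0.34 (SE 0.14). At that unadjusted p stood 17.3% of all lung, 5.42% of liver and 9.18% of forestomach probes for the trend. The shares of all probes called for a trend were 0.168% in lung, 0% in liver and 0.04% in forestomach. For the difference of D3 effects between tissues, limma called 0 of 21, and 0 had an unadjusted p of at most 0.05. The shares of all probes called there were 0% for lung against liver, 0.706% for lung against forestomach and 0.0806% for liver against forestomach. In the same order, 5.24%, 12.9% and 9.95% of all probes had an unadjusted p of at most 0.05.

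The levels of these genes differed much more between tissues than between doses. Among D0 mice, 17 of 21 differences between tissues were called in limma, where 46% of all probes were called between lung and liver, 37.6% between lung and forestomach and 41% between liver and forestomach. The metallothioneins were lowest in liver and highest in forestomach. Mt2 averaged -4.04 ± 0.25 in liver, -2.91 ± 0.60 in lung and 0.09 ± 0.48 in forestomach (SD, n = 5 each). Its forestomach level was 17.5-fold that of liver (limma adjusted p 1.31e-14) and 7.99-fold that of lung (limma adjusted p 3.29e-10). Mt1 followed the same order, at -3.53 ± 0.26, -2.0 ± 0.22 and -0.91 ± 0.50, with forestomach 6.15-fold over liver (limma adjusted p 8.14e-13). The 2.14-fold lead of forestomach over lung for Mt1 turned in direction when arrays were centred on the median in place of an intensity-dependent fit (lung minus forestomach -1.10 against 0.57). Median centring also ended the limma call of Mt1 between liver and forestomach (-1.35, adjusted p 0.209) and those of Mt2 between lung and forestomach (-1.20, adjusted p 0.153) and lung and liver (1.46, adjusted p 0.0962), with the direction kept.

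Sgk1 and Nr3c1 had another order. Sgk1 averaged 0.40 ± 0.22 in lung, 0.19 ± 0.50 in forestomach and -2.29 ± 0.34 in liver, so liver was 6.45-fold below lung (limma adjusted p 1.28e-17) and 5.59-fold below forestomach. Lung and forestomach did not differ beyond their spread for Sgk1 (difference 0.21, SE 0.19, limma adjusted p 0.35), but with median centring the difference was 2.50 and called, and that between liver and forestomach was -1.26 and not called. Nr3c1 averaged 0.77 ± 0.15 in lung, -0.45 ± 0.17 in liver and -0.82 ± 0.23 in forestomach. Lung was 2.32-fold over liver and 3.00-fold over forestomach, and the difference of 0.37 (SE 0.11) between liver and forestomach was under the fold limit, which it passed with the loess computed here (0.70), with normexp background correction (0.66) and with median centring (1.92).

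The levels of the induced genes Tsc22d3 and Zbtb16 fell in the order lung, liver, forestomach. Tsc22d3 averaged 2.08 ± 0.86, 1.19 ± 0.58 and 0.41 ± 0.51, and each step was called (limma adjusted p 0.00365 for lung against liver and 0.011 for liver against forestomach). Fitted on the D0 arrays alone, these limma adjusted p were 0.0529 and 0.0895, and without mouse 1 that for liver against forestomach was 0.0837. Zbtb16 averaged 3.84 ± 1.36, 3.63 ± 1.35 and 1.34 ± 1.13, where lung and liver did not differ beyond their spread (0.22, SE 0.61) and forestomach was 5.66-fold below lung and 4.87-fold below liver. Fkbp5 was lowest in lung, at -1.47 ± 1.15, against -0.37 ± 0.68 in liver and -0.11 ± 0.53 in forestomach, but its differences between tissues all turned in direction with median centring. Lung minus liver went from -1.11 to 0.12, lung minus forestomach from -1.36 to 1.10 and liver minus forestomach from -0.25 to 0.98. The order of tissues for Fkbp5 therefore depended on the normalisation.

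Within dose groups, mice differed more for Zbtb16, Fkbp5 and Tsc22d3 than for most probes of lung and liver. The residual SD of Zbtb16 was 1.02 in lung and 1.08 in liver (log2), at the 99.3rd and 99.8th percentile of all probes tested there, against medians of 0.16 in each. Fkbp5 stood at the 98.6th and 98.1st percentile and Tsc22d3 at the 97.2nd and 97.1st in lung and liver. Mt2 stood at the 99.0th percentile in lung, the 91.7th in liver and the 72.4th in forestomach. Its fold range between lungs was 8.40 with mice 17 and 19 and 3.11 without them. Mt1 stood at the 86.7th percentile in lung, the 94.6th in liver and the 86.0th in forestomach. For Sgk1 the percentile was 72.1 in lung, 85.5 in liver and 75.4 in forestomach. Nr3c1 was on the other side, at the 23.6th percentile in liver and the 13.1st in forestomach, and at the 68.7th in lung. These percentiles are descriptions and were not tested.

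Between lung and liver of the same mouse, Fkbp5, Tsc22d3 and Zbtb16 moved together, as did Zbtb16 between liver and forestomach. Correlations were taken over deviations from the dose-group mean, with p from 100000 permutations of the mice within dose groups, and 21 relations (7 genes, 3 pairs of tissues) formed the family. Zbtb16 in lung and liver had r = 0.81 over 18 mice (permutation p 0.00028, adjusted 0.00588) and rho = 0.78 (permutation p 0.00091, adjusted 0.0191). Within slides r was 0.87, and the adjusted permutation p stayed at most 0.05 with each mouse left out in turn. The call was lost without the 2 mice farthest from the median (r = 0.72), without mice 3 and 15 (r = 0.74) and with median centring (r = 0.63).

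Fkbp5 in lung and liver had r = 0.83 (permutation p 0.00772, adjusted 0.0405) and rho = 0.72 (permutation p 0.0103, adjusted 0.0719). Within slides r was 0.80, without the 2 farthest mice 0.71, with median centring 0.65, and without mice 3 and 15 it was 0.45, so the relation rested largely on those mice. Tsc22d3 in lung and liver had r = 0.78 (permutation p 0.00383, adjusted 0.0402) and rho = 0.61 (permutation p 0.0182, adjusted 0.0958). Its r was 0.74 within slides, 0.58 without the 2 farthest mice, 0.56 without mice 3 and 15 and 0.41 with median centring. Zbtb16 in liver and forestomach had r = 0.70 over 19 mice (permutation p 0.0065, adjusted 0.0405) and rho = 0.70 (permutation p 0.00569, adjusted 0.0597), with 0.81 within slides, 0.58 without the 2 farthest mice, 0.64 without mice 3 and 15 and 0.37 with median centring. The calls of all these relations were kept within slides and lost without the 2 farthest mice, without mice 3 and 15 and with median centring. Counting also each mouse left out in turn, the lung and liver call was lost under 18 alternatives for Fkbp5 and 12 for Tsc22d3. For Zbtb16 it was lost under 3 in lung and liver and 19 in liver and forestomach.

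These were the 4 of 21 relations with an adjusted p of at most 0.05 for r. Over all genes, the median r between lung and liver was 0.09, and 8.58% of 12085 genes had an r above 0.5. Between liver and forestomach the median was 0.05, with 4.86% of 11909 genes above 0.5. The 4 relations stood between the 98.8th and the 99.3rd percentile of genes. No relation between lung and forestomach was called for any of the 7 genes, and the metallothioneins, Sgk1 and Nr3c1 gave no called relation between any tissues. Their r lay between -0.50 and 0.40, and the lowest was that of Mt1 in liver and forestomach (permutation p 0.041, adjusted 0.174), which was -0.07 within slides.

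**Figure D4:**
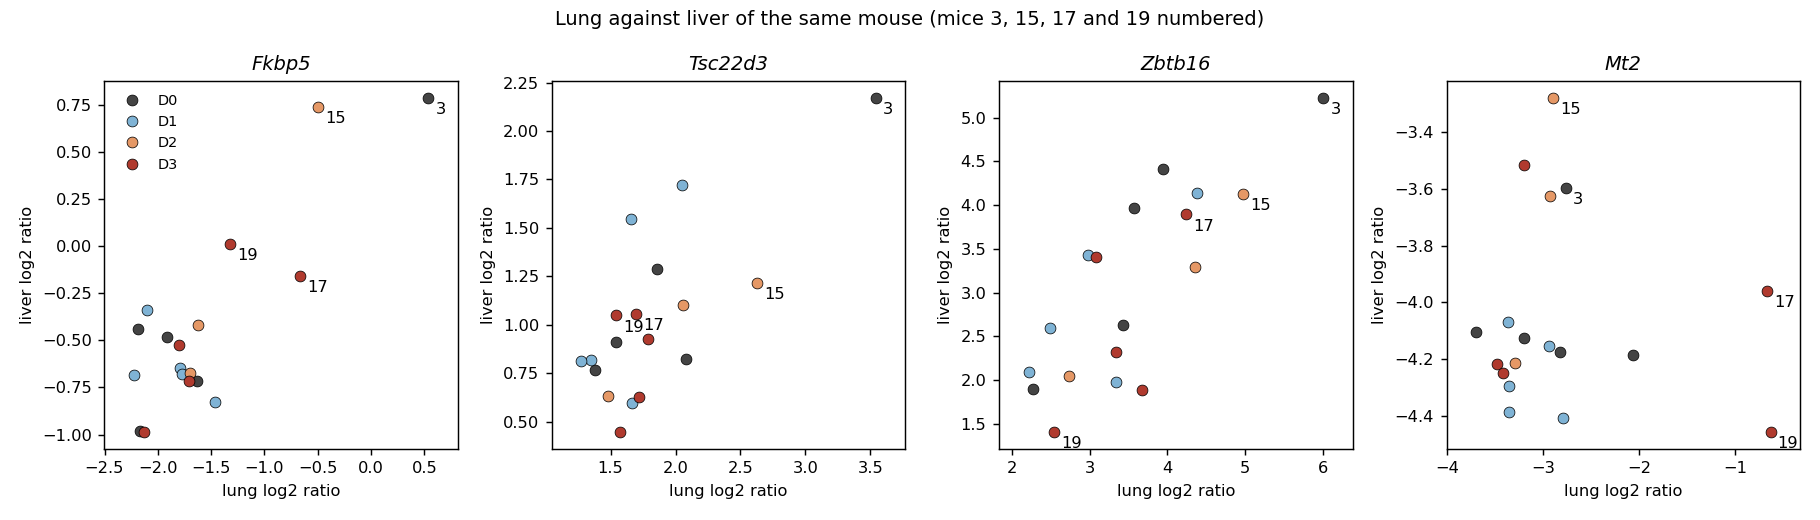
Liver log2 ratio (vertical axes) against lung log2 ratio (horizontal axes) of the same mouse for 4 of the genes, with 1 point per mouse coloured by dose group and mice 3, 15, 17 and 19 numbered. Mouse 3 lies at the upper right for Fkbp5, Tsc22d3 and Zbtb16, whose r over deviations from the dose-group means were 0.83, 0.78 and 0.81.

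Mice 3 and 15 also stood out on other lists. The mean of the 26 other glucocorticoid responsive genes listed was highest in mouse 3 in lung (1.12, against at most 0.86 in all mice but 3 and 15) and in liver (1.25), but in forestomach mouse 3 stood 12th, at 0.08. The mean of 8 clock output genes was highest in mouse 15 in each tissue, at 1.69 in lung, 1.68 in liver and 0.27 in forestomach, while the other mice but mouse 3 reached at most 1.07, 1.45 and 0.05. Clock output also differed by dose group. From D0 to D3 its group means were 0.15, 0.32, 1.07 and 0.60 in lung and 0.26, 0.42, 1.07 and 0.73 in liver. In forestomach they were -0.55, -0.44, -0.25 and -0.21. These group differences were not tested. The hour at which each mouse was killed is not given in the sources used here, and its part in these levels was not tested.

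Within a tissue, Mt1 and Mt2 moved together in all 3 tissues. Their r was 0.89 in lung (rho = 0.89), 0.77 in liver (rho = 0.67) and 0.68 in forestomach (rho = 0.74), with adjusted permutation p of 0.00252, 0.026 and 0.0285 for r and 0.0063, 0.0432 and 0.0291 for rho in a family of 63 relations (21 gene pairs, 3 tissues). Without the 2 farthest mice r was 0.81, 0.67 and 0.57, and within slides 0.92, 0.86 and 0.72. The lung relation passed the limit under every alternative, and without mice 17 and 19 its r was 0.80. Genes measured on 1 array share its RNA and its normalisation, and the part of these in any such r was not tested.

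Of the 63 relations, 16 passed the limit, 8 of them in lung, and with median centring 45 passed. The share among all pairs of genes was not computed, so this count cannot be read as particular to the 7 genes. Tsc22d3 and Zbtb16 had r = 0.85 in lung (adjusted permutation p 0.0166, rho = 0.74 with 0.0313), with 0.83 within slides and 0.70 without the 2 farthest mice. Fkbp5 and Zbtb16 had r = 0.76 in lung, which was 0.43 without mice 3 and 15. In liver, Fkbp5 moved with Tsc22d3 (r = 0.68) and with Sgk1 (r = 0.65), which were 0.42 and 0.48 without mice 3 and 15. Zbtb16 and Mt1 had r = 0.64 in liver, and in forestomach Zbtb16 and Mt2 had r = 0.82 while Tsc22d3 had r = 0.64 with Mt1 and r = 0.65 with Mt2. Without the 2 farthest mice these forestomach values were 0.68, 0.68 and 0.40, and their calls were lost under 1, 7 and 12 alternatives. Within D0, D1 and D3, forestomachs with high glandular stomach markers had higher Mt1 than those with low markers. The part of these markers in the forestomach relations was not tested.

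In lung, the receptor gene ran against the metallothioneins, with r = -0.76 for Nr3c1 and Mt1 and r = -0.82 for Nr3c1 and Mt2 (adjusted permutation p 0.0381 and 0.0343). These values fell in size to -0.44 and -0.46 without mice 17 and 19, and were -0.02 and -0.26 with median centring. Nr3c1 also had r = 0.68 with Sgk1 and r = -0.54 with Fkbp5 in lung, and the remaining lung relation was that of Fkbp5 and Mt1, at r = 0.62. Nr3c1 gave no called relation in liver or forestomach. Without mice 17 and 19 the count of relations past the limit was 6, and without mice 3 and 15 it was 9.

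**Figure D5:**
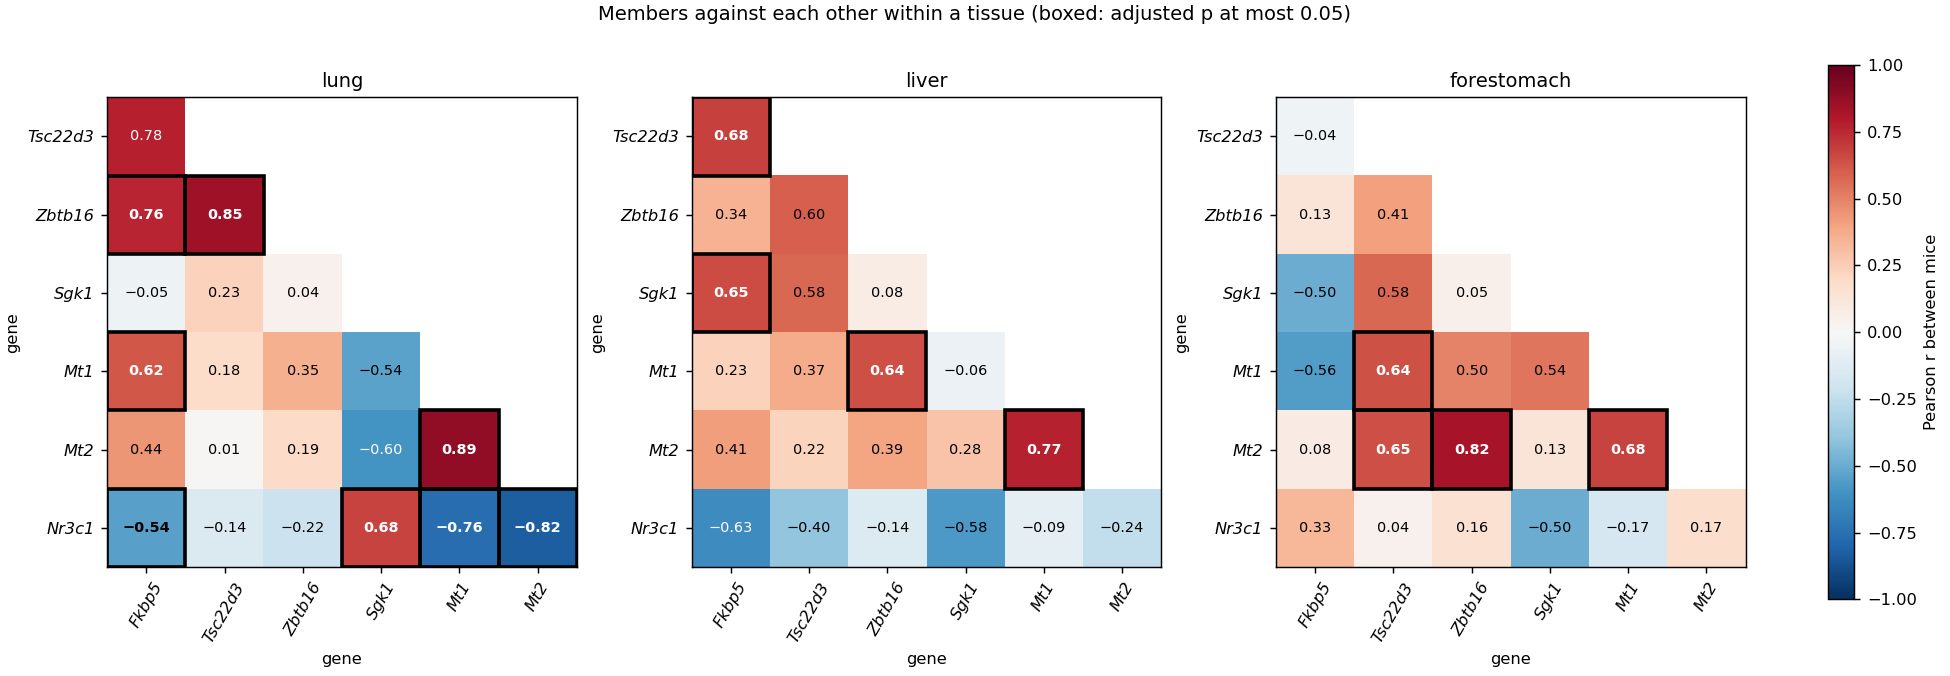
Pearson r between pairs of the 7 genes over mice within lung, liver and forestomach (rows and columns are genes, colour and printed number are r, boxes mark an adjusted permutation p of at most 0.05). Mt1 and Mt2 are boxed in each tissue (0.89, 0.77 and 0.68), and Nr3c1 is negative with both in lung.

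The genes whose pattern was most like each of the 7 were ranked by the mean r over the 3 tissues among 11754 genes, as a description. Mt1 and Mt2 were each other's nearest gene (mean r 0.78). Outside the 7, Lpin1, which encodes a phosphatidate phosphatase and is in the list of other responsive genes, Tspyl2 and Chd9 were nearest to Fkbp5 (0.64, 0.65 and 0.63). Herpud1, Bnip3 and Glul, which encodes glutamine synthetase, were nearest to Tsc22d3 (0.71, 0.69 and 0.65), and Wbp1l, Glul and the interleukin 6 receptor gene Il6ra to Zbtb16 (0.69, 0.60 and 0.59). Id1, Tcim and Sema3c were nearest to Sgk1 (0.78, 0.77 and 0.77). Slc25a34, Lgals4 and Pdk2 were nearest to Mt1 (0.75, 0.74 and 0.73), and Gm8709, annotated as a transcribed pseudogene, Lgals4 and Klhl21 to Mt2 (0.74, 0.70 and 0.68). The r of Gm8709 with Mt2 was 0.96 in lung, 0.52 in liver and 0.74 in forestomach. Mice 17 and 19 were the highest lungs for Mt2, and their part in its nearest genes was not tested. Fermt2, Prkd3 and Rdx were nearest to Nr3c1 (0.74, 0.66 and 0.64).

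The wider pathway gave no call either. Of 11 genes of receptor partners and ligand supply, 26 other glucocorticoid responsive genes and 12 genes of zinc and metal handling, limma called 0 in any tissue at any dose, for the trend or for the D3 difference between tissues. At D3 and an unadjusted p of at most 0.05 stood 2 of 10 receptor partners tested in lung, 0 in liver and 2 in forestomach, 5, 1 and 1 of 23 other responsive genes, and 4 of 11, 1 of 10 and 0 of 10 zinc genes. Beside these counts, 16.2% of all lung, 4.8% of all liver and 9.24% of all forestomach probes were at that p. The median D3 log2 fold changes in lung were -0.15, -0.12 and -0.09 for these lists, beside -0.03 over all lung probes.

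Hsd11b1, the enzyme that regenerates active corticosterone, was well above background on all lung and liver arrays, with medians of 5.51 and 7.01, and had a median of 0.92 in forestomach. Hsd11b2, which inactivates the hormone, was well above background on no array. Among receptor partners, the extremes at D3 were Ncoa2 (0.43, SE 0.15) and Stip1 (-0.23, SE 0.14) in forestomach, Nr3c2 (0.10, SE 0.13) and Ncor1 (-0.17, SE 0.09) in liver, and Ncoa2 (0.05, SE 0.09) and Hsp90aa1 (-0.36, SE 0.25) in lung. Ncoa2 and Ncor1 are a coactivator and a corepressor of nuclear receptors, Nr3c2 is the mineralocorticoid receptor, and Hsp90aa1 and Stip1 are parts of the chaperone complex that holds the receptor. Ncoa1, another coactivator, had a D3 effect 0.58 lower in lung than in forestomach (difference -0.58, SE 0.15, limma adjusted p 0.0492), which is just under the fold limit.

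Among the other responsive genes, the D3 extremes in lung were Pck1 (1.68, SE 0.74), an enzyme of gluconeogenesis, and Angptl4 (-0.87, SE 0.41), an inhibitor of lipoprotein lipase. Pck1, which adipocytes also express, was well above background on 9 of 18 lungs. The mean of 5 adipocyte markers in lung was 0.62 to 3.00 in D0 and 1.45 to 4.62 in D3, highest in mice 17 and 19, and its part in the Pck1 value was not tested. In liver the extremes were Bcl6 (0.90, SE 0.51) and Igfbp1 (-1.14, SE 0.63), and in forestomach Il1r2 (1.01, SE 0.68) and Pck1 (-0.62, SE 0.68). The limma adjusted p of these genes was 0.277 or more.

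In the zinc list, Slc39a14, a zinc and iron importer, had a limma adjusted p of at most 0.05 in lung at D3, with a log2 fold change of -0.45 (SE 0.08, adjusted p 0.0322), under the fold limit. Its fitted trend was -0.44 (SE 0.08, limma adjusted p 0.0143), and that of Mt3 in lung was -0.42 (SE 0.09, limma adjusted p 0.0391). The highest D3 value in lung was that of Mt4 (2.67, SE 1.14), which was high in mice 17 and 19. The extremes were Slc30a1 (0.29, SE 0.13) and Slc30a10 (-0.23, SE 0.28) in liver and Mt4 (0.47, SE 0.44) and Slc39a4 (-1.08, SE 0.71) in forestomach. Slc30a1 exports zinc from the cell and Slc39a4 takes it up from the gut. Mtf1, the metal-responsive factor itself, had medians of 0.92, 0.77 and 0.36 in lung, liver and forestomach.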

How the data were processed

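RNA of lung, liver and forestomach was measured on 2-colour Agilent arrays with the tissue in Cy5 and a universal mouse reference in Cy3, with no dye swaps. The authors deposited a table of log2 ratios (LOWESS within each array, no background subtraction), which gave the values here. Median spot and background intensity, and flags of 0 or 1, came from the scanner output the authors deposited. The table had r of 0.977 to 0.998 with a loess computed here. Accessions were matched to RefSeq (GRCm38.p6), which named 26413 of 55681 probes. Control spots and spots called non-uniform were left out, and probes needed Cy5 well above background on at least 3 arrays of the tissue.

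Groups, doses and mouse numbers came from the labels. The methods name MAANOVA, and limma 3.58.1 (R 4.3.3) was used in its place, on all arrays of a tissue, or on all 56 for comparisons between tissues, with Benjamini-Hochberg adjustment. Correlations used permutations in Python 3.11.15 with scipy 1.17.1. In simulated data at D3, limma recovered 91.8%, 94.9% and 65.4% of log2 changes of 1 in lung, liver and forestomach. Those changes were planted in 200 probes taken at random. Residual SDs in lung were 1.02 for Zbtb16, 0.88 for Mt2 and 0.74 for Fkbp5, against a median of 0.16 over all probes. The rates thus say little about such variable genes. Mouse numbers pair tissues of 1 animal, and the median r between tissues over all genes was 0.09, 0.006 and 0.053 (lung and liver, lung and forestomach, liver and forestomach). The number of arrays limits the precision. The rule for named genes took the 7, list genes past both limits (there were none), the extremes of each list at D3 and the 3 nearest genes of each of the 7. Outside it, Ncoa1, Mt3, Hsd11b1, Hsd11b2, Mtf1 and Nfkbia were named from the lists after their values were seen. The members, lists and tests were chosen with earlier results of these data known. Alternatives were another normalisation or background correction, probe choice, filter, weights, slide, array column, mouse as a block, and leaving out mice. Slide was no alternative for levels between tissues, since each tissue had slides of its own.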

Additional observations from a re-analysis of the deposited data

Results flagged for a closer look

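Of 77 groups of 4 or 5 mice examined, 2 held a mouse far from the rest of its group, where chance gives about 1 in 20 groups. Both were mouse 3 of D0. Its lung Fkbp5 level was 0.54, against -2.19 to -1.63 in the other D0 lungs, a gap that was 0.796 of the group's range. Its liver Mt2 level was -3.60, against -4.19 to -4.11 in the other D0 livers, a gap of 0.862 of the range. Without mice 3 and 15 no dose effect of the 7 genes was called in limma.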

How the results depend on the processing

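Under every alternative limma called 0 dose effects, 0 trends and 0 D3 differences between tissues for the 7 genes. The levels gave 17 called differences, 14 with D0 arrays alone, 12 with median centring and 16 to 17 leaving out each mouse. With mouse as a block on the D0 arrays (the pairing of tissues) the count was 17, and the mouse as a random block (correlation 0.0257) left the D3 differences at 0. Median centring reversed Fkbp5 (lung minus liver 0.12, lung minus forestomach 1.10, liver minus forestomach 0.98) and Mt1 (lung minus forestomach 0.57). The D3 effect on lung Mt2 was -0.65 with the array column as a covariate and -0.46 without mice 17 and 19. The array column followed the dose on most arrays.

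The 4 relations between tissues became 0 with median centring, without the 2 farthest mice and without mice 3 and 15, 1 with Spearman's rho, 2 without mice 17 and 19, and 1 to 5 leaving out each mouse in turn (1 without mouse 1, 3, 7, 12, 13, 15 or 16, and 2 without mouse 4, 8, 9, 17, 18 or 20). The 16 relations within tissues became 45 with median centring, 1 without the 2 farthest mice, 6 without mice 17 and 19, 9 without mice 3 and 15, and 4 to 17 leaving out each mouse (4 without mouse 15, 6 without mouse 4, 8 without mouse 3 or 17). List genes with a D3 difference between tissues went from 0 to 1 with slide as a block (Nfkbia), 2 with array weights (Ncoa1 in 2 pairs of tissues), 1 without mice 3 and 15 (Ncoa1) and 0 to 1 leaving out each mouse. Leaving out mice 3 and 15 or 17 and 19 was chosen after seeing the data. The cause of these shifts was not tested. Signal over background limits forestomach values most.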

Other observations

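The other Nr3c1 probe was well above background on all 18 lungs, all 19 livers and 10 of 19 forestomachs. Its r with the probe used was 0.59 in lung, 0.18 in liver and 0.27 in forestomach.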
